A study of Mus musculus with 2 samples.

Results

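The constitutive proteasome subunits are the gene products that build the protein-degrading complex present in all cells, here measured in whole kidney RNA of control and cystic mice. The members were the probe sets naming 1 gene whose platform symbol began with Psma, Psmb, Psmc, Psmd or Psme followed by a number, without the inducible subunits Psmb8, Psmb9 and Psmb10. They comprised 84 of 45037 probe sets and 39 of 18193 named genes. By role, 16 of the genes belong to the 20S core, 17 to the 19S cap, 3 are cap assembly chaperones that share the Psmd name, and 3 encode activators, of the PA28 and PA200 kinds.

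The proteasome is a barrel, the 20S core, closed by regulatory particles. The core stacks rings of alpha subunits, which gate the entry, and rings of beta subunits, of which Psmb5, Psmb6 and Psmb7 carry the proteolytic sites. The 19S cap binds ubiquitin-tagged proteins, removes the ubiquitin, and unfolds and feeds the substrate with a ring of ATPases, while PA28 and PA200 are alternative caps. In cells exposed to interferon, Psmb8, Psmb9 and Psmb10 can replace the constitutive catalytic subunits and form the immunoproteasome, which favours peptides for presentation on major histocompatibility complex (MHC) class I molecules.

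The mice model nephronophthisis type 2, an inherited cystic kidney disease that follows from loss of inversin, the product of Invs. The control kidney was +/+,inv-deltaC::GFP and the cystic kidney inv/inv, inv-deltaC::GFP, so that both groups carried a transgene for inversin without its C-terminus, and the control had normal Invs alleles. Both groups were 4 weeks old by the series design, and the cystic sample is labelled female and 28 days old. Each group was measured on 1 array, and the design mentions 2 kidneys without saying how many animals gave the RNA of an array; the promoter that drives the transgene is not stated in the labels. The values are MAS5 signals, linear intensities of a probe set that are comparable between the arrays for a given probe set but not between probe sets. The number of arrays, 1 per group, allowed no test and limits the precision, so that a gene was said to rise or fall only at a 2-fold difference. Log2 ratios are cystic minus control. A signal under the array's median (55.4 for control, 61.9 for cystic) was treated as under the floor, and a probe set under it on both arrays as not measured.

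Several facts of the arrays bear on every ratio. The label of the cystic array goes against its data for sex: the signal of Xist, transcribed from the inactive X of females, was 387 (control) and 57.4 (cystic, under the floor), and the Y-linked Eif2s3y, Uty and Kdm5d were above the floor on both arrays. Sex, or a pool of sexes, and genotype cannot be told apart here, and no result can be given without either array. The brightest Invs probe set had signals of 118 (control) and 15.9 (cystic). Markers of kidney were present, with Umod, of the thick ascending limb, at 8713 and 8160 and the proximal tubule phosphate transporter Slc34a1 at 8397 and 5093. Marker levels of several cell types differed: 13 of 16 macrophage markers rose past 2-fold (summed signal 2595 in control, 12876 in cystic), as did 12 of 12 fibroblast markers (6905 and 30499.9), and 12 of 15 proximal tubule markers were at least 2-fold lower (67314 and 30068). Over all measured genes 7.06% were at least 2-fold higher and 3.78% at least 2-fold lower. Of 10 measured distal nephron and collecting duct markers 4 fell (26632 and 18932). Of 5 podocyte markers 1 fell (1739 and 1206), and none of 10 endothelial markers passed 2-fold (3635 and 4176), so that little can be read from these counts. T and B cell markers were near or under the floor, with 2 of 9 above the floor on 1 array and none on both (313.2 and 216.2). No marker in these lists was listed at 0. The sums add signals of different probe sets, some of them under the floor, and are a description only. The part of these cell types in the proteasome values was not tested, and in whole tissue fewer cells of a type and less RNA per cell cannot be told apart.

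The constitutive proteasome genes stayed under 1.5-fold in both directions. Of the 39 genes, 37 were above the floor on both arrays, and their signals ranged from 231.7 to 3243 on the control and from 244.9 to 2581 on the cystic array. None of the 37 was at least 2-fold higher (7.06% of all measured genes were), and none was at least 2-fold lower (3.78%). At the lower limit of 1.5-fold the count was again 0 in each direction, against 16.4% of measured genes higher and 10.8% lower. All 37 thus differed by under 1.5-fold, as did 72.8% of the 12014 measured genes. Since all 37 had signals over 200, the same was counted over the 6390 genes at or over 200 on both arrays, of which 76.7% differed by under 1.5-fold. In that set 3.46% were at least 2-fold higher and 4.55% lower, and 10.3% were at least 1.5-fold higher and 13.1% lower. The median log2 ratio of the members was -0.01, beside 0.09 for all measured genes and 0.02 for the genes at or over 200. The members split between the directions, with 17 (45.9%) above 0 and 20 below, beside 57.8% of measured genes and 51.7% of the genes at or over 200 above 0. Their interquartile range was 0.24, against 0.64 for measured genes and 0.59 for the genes at or over 200.

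**Figure D1:**
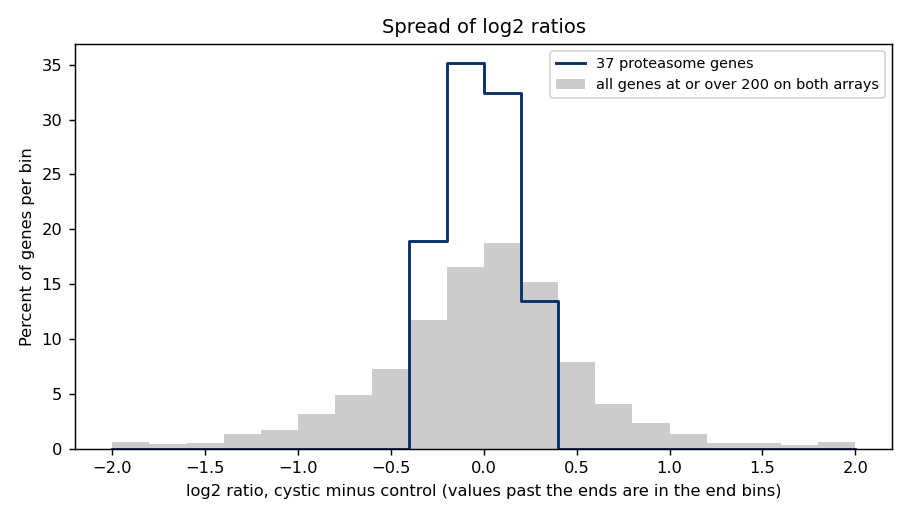
Distribution of log2 ratios (x axis, cystic minus control, bins of 0.2) as the percent of genes in each bin (y axis), for 37 proteasome genes (line) and 6390 genes with signals at or over 200 on both arrays (grey bars), 1 array per group. The proteasome genes lie between -0.37 and 0.34, and the grey bars reach past both ends.

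The only repeat measurement came from probe sets that read the same gene, which share the RNA and the array and leave out differences between animals. Of the 84 probe sets, 60 were above the floor on both arrays, 1 on the control only, 1 on the cystic only, and 22 were not measured. Among the 60 no ratio reached 2-fold, and 1 was past 1.5-fold, a second Psmb4 probe set with -0.61. For 16 members with at least 2 probe sets above the floor on both arrays, the pooled SD of the log2 ratios was 0.20 (39 probe sets), beside 0.29 for 4678 other genes. The most extreme member genes, Psmd3 with -0.37 and Psmd10 with 0.34, lay within 2 of these SDs of 0. Each had 1 probe set, and these SDs describe the spread between probe sets only.

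**Figure D2:**
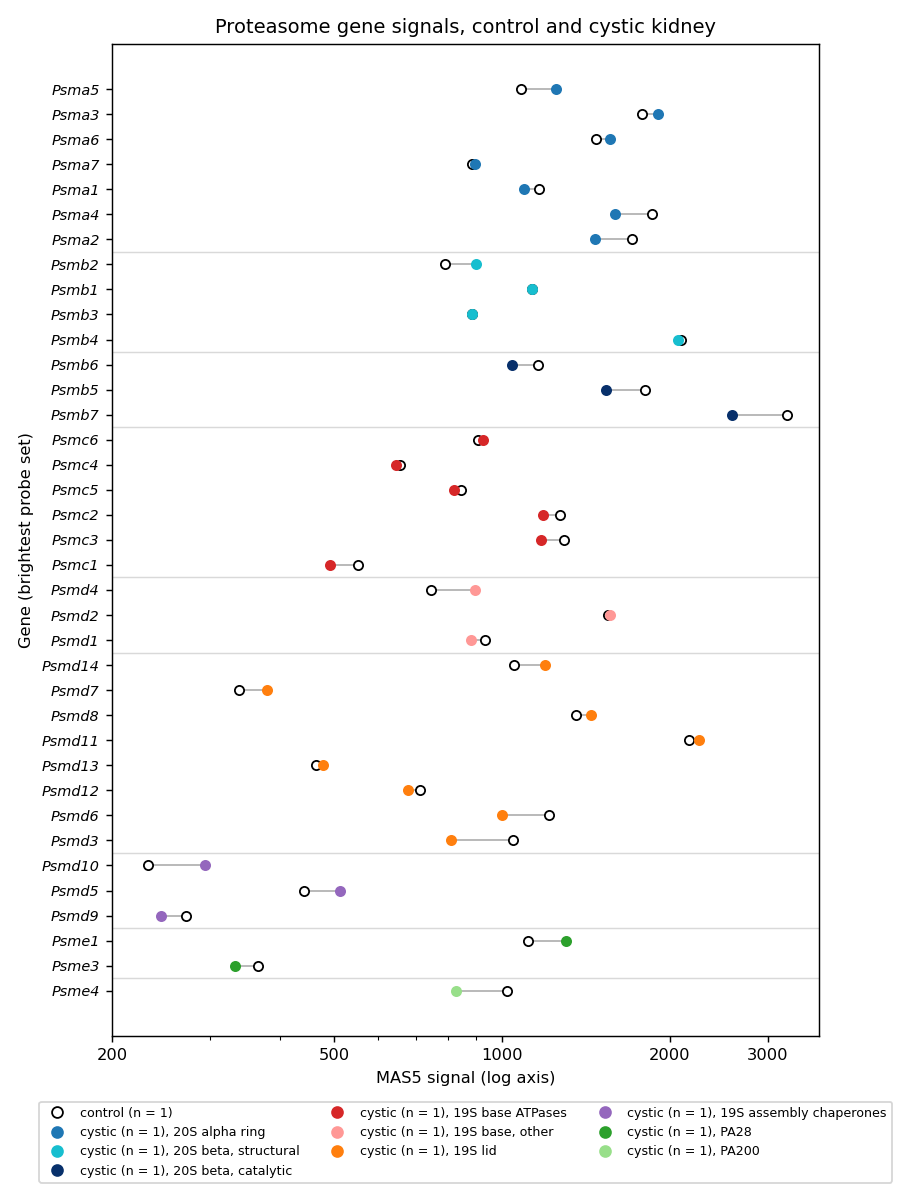
MAS5 signal (x axis, log scale) of the brightest probe set of 37 proteasome genes (y axis, grouped by part), open circles for the control and filled circles for the cystic kidney, 1 array each. The circles of a gene lie close together throughout, with the widest gap at Psmd3 (1046 and 809.5); positions of different genes are not comparable.

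In the 20S core, the alpha ring went both ways. The median log2 ratio of its 7 measured members was 0.02, with 4 above 0 and 3 below. This depended on the probe set: the ring's median was -0.19 with the median over probe sets, and -0.22, with all 5 remaining genes below 0, without probe sets whose names end in _a_at, _s_at or _x_at. Psma5, the member furthest above, had signals of 1082 (control) and 1248 (cystic), a log2 ratio of 0.21, and its other measured probe set had 0.18. Psma3 went from 1781 to 1906 (0.10) and Psma6 from 1474 to 1562 (0.08), so that both were slightly higher in the cystic kidney. Further Psma6 probe sets had log2 ratios of 0.00 and -0.30, and the signs therefore differed within this gene. The lower members were Psma2, with 1714 and 1466 (-0.23), and Psma4, with 1855 and 1593 (-0.22). Psma1 had 1165 and 1097 (-0.09) at its brightest probe set and -0.38 at a dim one with a signal of 110.1 in the control. Psma7 was level at 884.2 and 894 (0.02), whereas its other probe set, of nearly the same control signal (882.1), was at 674.2 in the cystic kidney (-0.39). Psma8, which replaces Psma7 in the proteasome of the testis, had signals of 20.5 and 12.1, under the floor on both arrays.

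The non-catalytic beta subunits Psmb1 to Psmb4, which complete the ring, had a median log2 ratio of 0.00. Psmb1, with 1132 and 1134, and Psmb3, with 884.4 and 882, were level between the kidneys at their brightest probe sets, as was Psmb4 with 2091 and 2069 (-0.01). Psmb2 was higher in the cystic kidney, with 790 and 898 (0.18). For Psmb3 and Psmb4 the level reading depended on the probe set. The median of Psmb1 to Psmb4 was -0.08 with the median over probe sets. It was 0.08 without probe sets whose names end in _a_at, _s_at or _x_at. The other Psmb3 probe set went from 1023 to 691.4, a log2 ratio of -0.56, and the other Psmb4 probe set from 1579 to 1032 (-0.61). These were the widest gaps between probe sets of a member, 0.56 for Psmb3 and 0.60 for Psmb4. The pooled SD describes single ratios and not gaps, so that it does not tell how unusual these gaps are. The dim second Psmb1 probe set had 81.9 and 97.2 (0.25). Psmb11, the beta subunit of the thymus, had signals of 5.3 and 13.2 and was not measured.

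The catalytic beta subunits were each lower in the cystic kidney, by under 1.5-fold. Psmb5, which carries the chymotrypsin-like site, had signals of 1802 (control) and 1538 (cystic), a log2 ratio of -0.23. Psmb6, with the caspase-like site, had 1161 and 1043 (-0.15), and Psmb7, with the trypsin-like site, had 3243 and 2581 (-0.33). All 3 were below 0, as were 5059 of 12014 measured genes and 3080 of 6390 genes at or over 200. None of the 3 reached 2-fold, their median was -0.23, and each was read by 1 probe set. Scaling to equal medians or equal trimmed means lowered every log2 ratio by a constant, so it could not bring these values to 0. With quantile normalization they were nearer to 0, at -0.07, -0.07 and -0.15.

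The inducible counterparts of these subunits had ratios above 0. Psmb8, which takes the place of Psmb5, had 68.4 (control) and 272.4 (cystic), a log2 ratio of 1.99. Psmb10, the counterpart of Psmb7, had 138.2 and 365.8 (1.40), and Psmb9, the counterpart of Psmb6, had 73.2 and 132 (0.85). Psmb8 and Psmb10 thus rose past 2-fold, and Psmb9, at 1.80-fold, did not. Within each pair the fold difference of the inducible subunit was 4.67 times that of the constitutive one for Psmb8 and Psmb5, 3.33 times for Psmb10 and Psmb7 and 2.01 times for Psmb9 and Psmb6, for which no test was possible. Psmb8 and Psmb9 were close to the floor in the control, and with the floor at the 60th percentile their log2 ratios were bounds of 1.63 and 0.58. The macrophage markers were higher on the same array, and their part in the inducible subunits was not tested.

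**Figure D3:**
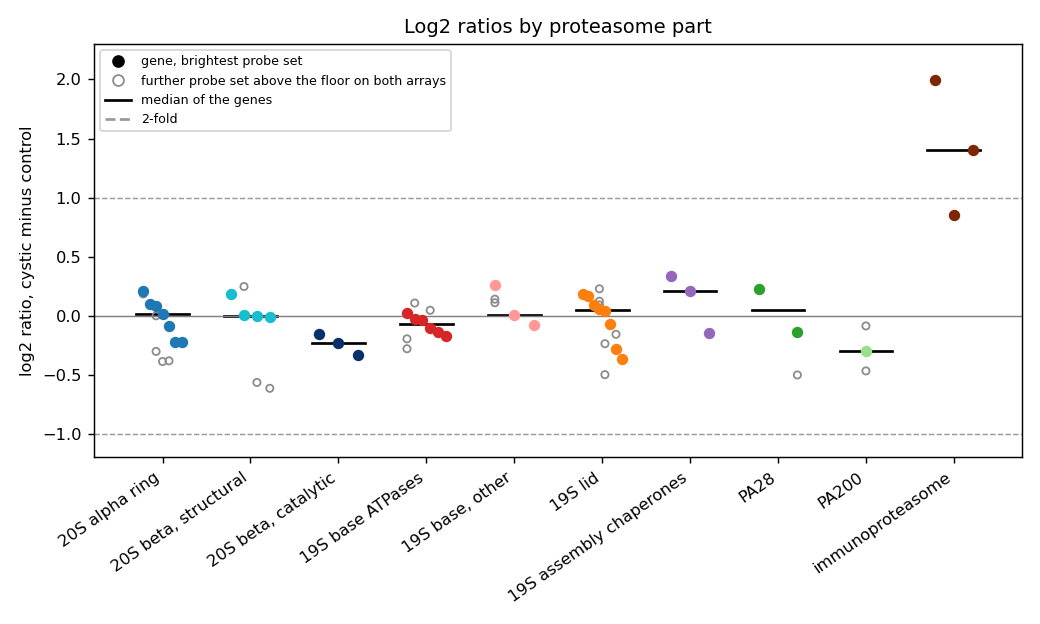
Log2 ratio (y axis, cystic minus control, 1 array each) of proteasome genes by part (x axis), with filled points for the brightest probe set of a gene, open points for further probe sets above the floor on both arrays, bars for medians and dashed lines at 2-fold. All constitutive parts lie between the dashed lines, and the immunoproteasome genes lie at 0.85, 1.40 and 1.99.

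The promoters of these subunits are shown because the members of a pair occupy the same place in the core and had different ratios; those of Psmb5 with Psmb8 and of Psmb6 with Psmb9 are printed. The sequences are from RefSeq, build GRCm38.p6, from 250 bases before to 50 after the start of the gene, and 32 of the 39 member genes were matched. Capitals mark matches, on either strand, to 4 motifs: TGACNNNGC (core of the antioxidant response element, bound by Nfe2l1 and Nfe2l2), CCAAT (the CCAAT box), GGGCGG (the GC box) and the core of the interferon-stimulated response element (GAAA, any 2 bases, GAAA). Psmb5 lies at chr14:54617946-54618245 (- strand), Psmb6 at chr11:70525107-70525406 (+ strand), Psmb8 at chr17:34197945-34198244 (+ strand) and Psmb9 at chr17:34187281-34187580 (- strand).
Psmb5: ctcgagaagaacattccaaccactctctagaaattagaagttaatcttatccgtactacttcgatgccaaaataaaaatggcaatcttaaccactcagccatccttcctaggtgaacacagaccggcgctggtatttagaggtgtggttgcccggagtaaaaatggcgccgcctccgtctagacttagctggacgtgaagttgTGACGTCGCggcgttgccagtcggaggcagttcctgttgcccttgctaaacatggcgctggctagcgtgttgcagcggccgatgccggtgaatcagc
Psmb6: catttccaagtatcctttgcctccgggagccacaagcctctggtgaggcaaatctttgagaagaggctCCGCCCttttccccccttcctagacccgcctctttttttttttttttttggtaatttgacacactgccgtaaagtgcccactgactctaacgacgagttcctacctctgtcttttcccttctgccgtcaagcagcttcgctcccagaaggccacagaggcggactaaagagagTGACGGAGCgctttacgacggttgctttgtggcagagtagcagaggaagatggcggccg
Psmb8: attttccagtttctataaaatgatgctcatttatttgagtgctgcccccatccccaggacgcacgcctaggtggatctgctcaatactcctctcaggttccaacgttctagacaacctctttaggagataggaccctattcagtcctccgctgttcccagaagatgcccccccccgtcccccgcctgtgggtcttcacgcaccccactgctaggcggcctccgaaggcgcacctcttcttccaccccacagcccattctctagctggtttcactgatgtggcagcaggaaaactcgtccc
Psmb9: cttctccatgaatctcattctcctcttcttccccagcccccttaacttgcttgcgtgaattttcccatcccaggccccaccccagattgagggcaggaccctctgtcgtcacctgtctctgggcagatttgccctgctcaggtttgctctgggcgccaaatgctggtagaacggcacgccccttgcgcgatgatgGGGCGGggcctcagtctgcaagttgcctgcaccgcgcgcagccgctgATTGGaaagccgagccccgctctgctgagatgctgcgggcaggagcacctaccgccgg

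Psmb5 and Psmb6 each held 1 match to the antioxidant response element core, and Psmb6 also 1 GC box. Psmb9 held 1 CCAAT box and 1 GC box, and Psmb8 and Psmb10, which is not printed, none of the 4 motifs in this window. No entry was matched for Psmb7. The interferon-stimulated core was in 0 of the 3 promoters of the inducible subunits. Over the 34 promoters of 32 member genes, 17.6% held the antioxidant response element core, against 12.4% of all 32851 promoters in the table. The GC box was in 58.8% of member promoters and 35.7% of all, the CCAAT box in 38.2% and 37.4%, and the interferon-stimulated core in 11.8% (4 promoters, those of Psmb3, Psmd4, Psmd9 and Psme1) and 3.44%. The antioxidant core was found in Psmb5, Psmb6, Psmc6, Psmd9, Psmd12 and Psme4, whose log2 ratios ran from -0.30 to 0.03. A match to these letters is a description of the sequence and shows neither binding nor a cause.

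In the 19S cap the median log2 ratio of 17 members was -0.02, with 8 above 0 and 9 below. The ring of 6 ATPases in its base, which unfold the substrate, had a narrow range, from -0.17 to 0.03, with 5 members below 0. Psmc1 had 551.9 (control) and 490.6 (cystic), a log2 ratio of -0.17, and Psmc3 had 1293 and 1173 (-0.14). Psmc2 (1273 and 1183, -0.10), Psmc5 (842.7 and 820.8, -0.04) and Psmc4 (657.3 and 646.6, -0.02) were nearer to level. Psmc6, the member above 0, had 907.5 and 924.6 (0.03), and its other probe sets had -0.28 and -0.20. The sign also changed with the probe set for Psmc2 (second 0.05) and Psmc4 (second 0.11).

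The rest of the base comprises the scaffold subunits Psmd1 and Psmd2 and the ubiquitin receptor Psmd4. Psmd4 had 746.6 and 895.5, a log2 ratio of 0.26, the highest of the cap, and its further probe sets had 0.14 and 0.11. All 3 Psmd4 probe sets were therefore above 0. The scaffolds were level, with 1552 and 1563 (0.01) for Psmd2 and 930.8 and 879.6 (-0.08) for Psmd1.

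The lid, which deubiquitinates the substrate, had a median of 0.05 over 8 members, 5 above 0 and 3 below. Its catalytic subunit, the deubiquitinase Psmd14, was higher in the cystic kidney, with 1049.6 and 1194 (0.19), and its partner Psmd7 had 337 and 379.4 (0.17). Psmd11, a structural subunit of the lid, had 2165 and 2253 (0.06), with further probe sets at 0.09, 0.23 and 0.12, so that all 4 measured probe sets were above 0. Psmd8 was close to level at 1356 and 1442 (0.09), as was Psmd12 at 712.7 and 677.6 (-0.07). Lower in the cystic kidney were Psmd3, with 1046 and 809.5 (-0.37), the lowest ratio of all members, and Psmd6, with 1217 and 1001.5 (-0.28, second probe set -0.16). Psmd13 read differently at each of its probe sets, with 464.2 and 477.3 (0.04) at the brightest. Dimmer Psmd13 probe sets had -0.24 and -0.50, and another with signals of 38 and 90 was at least 1.62-fold higher, a bound against the floor.

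The 3 assembly chaperones of the cap base, which leave the finished particle, were Psmd5, Psmd9 and Psmd10. Psmd10, known as gankyrin, had 231.7 and 292.7, the highest log2 ratio of all members (0.34). Its gene lies on chromosome X, and the arrays differed in Xist as given above; whether the difference in sex transcripts bears on it was not tested. Psmd5 had 441.9 and 511.3 (0.21) and Psmd9 271.4 and 244.9 (-0.15).

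Among the activators, the PA28 ring of most cells is made of Psme1 and Psme2, both inducible by interferon, and a nuclear PA28 ring is made of Psme3. Psme1 was higher in the cystic kidney, with 1113 and 1303 (0.23). The Psme2 probe set also names the near-identical copy Psme2b and so is no member; it had 430.8 and 629.2, a log2 ratio of 0.55 that cannot be split between the copies. Psme3 was lower, with 364.8 and 331.9 (-0.14) and a second probe set at 305.5 and 215.8 (-0.50). Psme4, the PA200 activator, had 1019.7 and 827.1 (-0.30), and its further probe sets had -0.09 and -0.47, all below 0. The activators thus divided into Psme1 and the shared Psme2 probe set above 0 and Psme3 and Psme4 below, none past 2-fold. Psme1 was read by 1 probe set, and its log2 ratio was 0.07 with median centring and 0.32 with quantile normalization. The other member promoters with the interferon-stimulated core belong to Psmd4 (log2 ratio 0.26), Psmb3 (-0.004) and Psmd9 (-0.15), and no promoter of the inducible subunits held it. The Psme1 promoter, at chr14:55578244-55578543 (+ strand), is shown as an example of this match, in capitals near the 3′ end. The capitals further upstream mark a GC box.
Psme1: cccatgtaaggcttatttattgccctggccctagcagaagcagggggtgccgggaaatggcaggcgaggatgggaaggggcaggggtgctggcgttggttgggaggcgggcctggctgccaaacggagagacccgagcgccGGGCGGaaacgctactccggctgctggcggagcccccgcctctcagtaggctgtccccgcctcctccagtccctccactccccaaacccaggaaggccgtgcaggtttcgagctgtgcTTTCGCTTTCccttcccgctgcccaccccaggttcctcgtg

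The genes that assemble and assist the proteasome are few, and 72.8% of all measured genes were under 1.5-fold, so that little can be read from their counts. Of the 5 chaperones of the 20S core, none passed 1.5-fold, and the median log2 ratio was 0.04. Psmg1, which pairs with Psmg2 to build the alpha ring, was the lowest, with 754.7 and 533.9 (-0.50), while Psmg2 had 468.3 and 482.3 (0.04). Psmg3, Psmg4 and the beta ring chaperone Pomp had log2 ratios of 0.15, 0.19 and -0.11. Of 9 partners that bind the cap or core, 7 were measured and none passed 1.5-fold, with a median of 0.04, from -0.17 for the ubiquitin ligase Ube3c (second probe set 0.47) to 0.33 for the thioredoxin-like Txnl1 (second -0.06). The deubiquitinases of the cap, Usp14 and Uchl5, had 0.28 (second -0.22) and 0.01, the 20S inhibitor Psmf1 had -0.08, the cap subunit Sem1 0.17 and Ecpas 0.04 (second 0.62).

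Upstream of the proteasome, 12 of 14 shuttle factors and genes of the Vcp segregase, which extracts tagged proteins, were measured, with none past 1.5-fold and a median of 0.00. Rad23b, a shuttle for tagged proteins, had the highest log2 ratio of the list (0.29, second probe set -0.15), and Ngly1, the glycanase that processes Nfe2l1, the lowest (733.2 and 523.3, -0.49). Of the ubiquitin genes and activating enzymes, Uba6 alone was read by a probe set naming it alone, with 327.2 and 416.1 (0.35, second 0.63), and the other 5 were not analysed here.

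The transcription regulators of proteasome genes had a median log2 ratio of 0.41 over 10 measured of 12 genes. Of these, 1 was past 2-fold higher and none past 2-fold lower (7.06% and 3.78% of all measured genes were). At least 1.5-fold higher were 4 (16.4% of measured genes were). Nfe2l1, which raises proteasome gene transcription when the proteasome is inhibited, was close to level at 797.9 and 838.5 (0.07). Nfe2l2 had 1286 and 1662 (0.37, second probe set -0.29). These genes and Irf1, Mafk, Maff and Nfyb were named after their values were seen. Stat3, a cytokine-activated factor, rose from 617.5 to 1632, a log2 ratio of 1.40, and its second probe set had 1.57. Irf1, an activator of the inducible subunits, had 332.4 and 560.9 (0.75), and the lowest of the list was Nfyc, a subunit of the CCAAT box factor, with -0.03. The others at least 1.5-fold higher were Mafk (153.1 and 234.6, 0.62) and Maff (4.5, under the floor, and 94), whose 1.70-fold is a bound. Nfyb, another subunit of the CCAAT box factor, had 0.45 (second probe set 1.10). The measured constitutive subunits had a median near 0.

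Genes of MHC class I presentation, which use proteasome products, were higher in part. Of 10 measured, 3 rose past 2-fold (7.06% of all measured genes did) and none fell (3.78%), and the list's median log2 ratio was 0.63. The peptide transporter subunits Tap1 (57.8 and 145.1, 1.33) and Tap2 (106.6 and 241.3, 1.18) and the class I heavy chain H2-K1 (1862 and 3940, 1.08, second probe set 0.79) were those past 2-fold, and the chaperone Canx was lowest with -0.31. The control signal of Tap1 was close to the floor of 55.4, so that its ratio rests on a dim reading. H2-K1 and other class I genes are close copies, so its probe sets may read more than 1 of them.

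**Figure D4:**
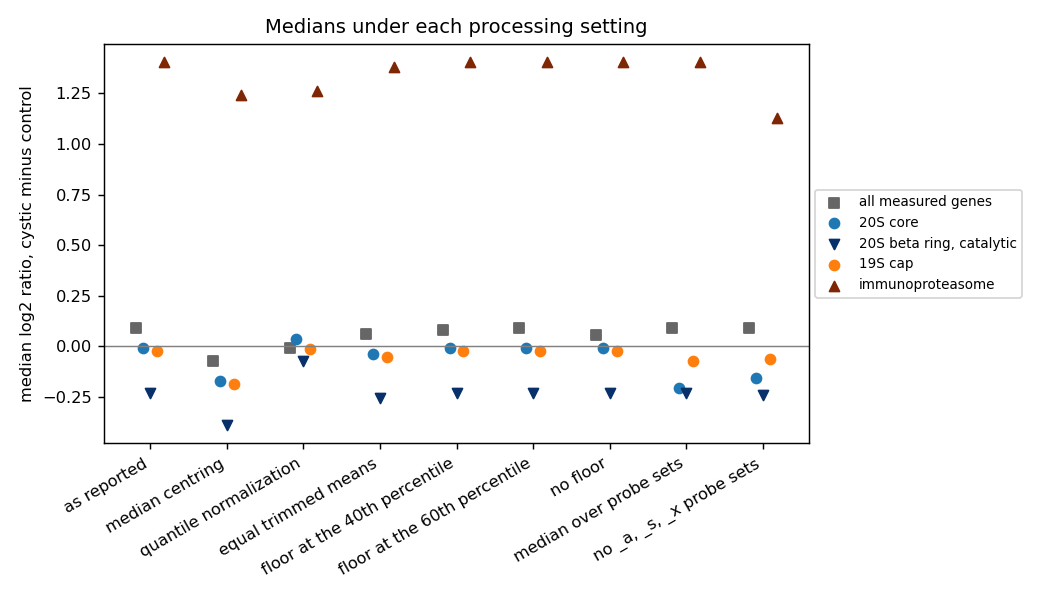
Median log2 ratio (y axis, cystic minus control) of 4 gene groups and of all measured genes under each processing setting (x axis). The immunoproteasome median stays between 1.13 and 1.40, and the medians of the 20S core, its catalytic subunits and the 19S cap stay between -0.39 and 0.04.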

How the data were processed

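Total RNA of mouse kidney was measured on biotin-labelled Affymetrix arrays, 1 for control and 1 for cystic mice, grouped by sample title. The deposited intensity of each probe set is the authors' MAS5 signal, per the submitters' processing notes; its version is not given in the sources used here, nor is the scaling target. That scaling was kept (2% trimmed means 178 and 181). Of 45101 probe sets, 64 controls were left out. Each array's median was the floor, and a signal under it on 1 array was raised to it. The platform annotation named the probe sets, and a RefSeq table (GRCm38.p6) updated symbols by gene identifier: 34945 named 1 gene, 932 several and 9160 none. A gene took its probe set of highest mean log2 signal. Every member gene was to be named, with all genes of lists of up to 6 measured members and, of longer lists, those past 2-fold, the highest and the lowest. Members and lists were chosen with earlier results of these data known. The steps were tested on simulated data. Alternatives changed scaling, floor and probe set. Python 3.11.15, numpy 2.4.6 and pandas 2.3.3 were used.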

Additional observations from a re-analysis of the deposited data

How the results depend on the processing

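No member above the floor passed 1.5-fold under any of the 8 settings. The settings that changed only the floor could not move these members, whose signals were all over 200, so they add nothing to this count. With no floor, the unmeasured Psmb11 was counted as 1 gene at least 2-fold and 1.5-fold higher and Psma8 as 1 at least 1.5-fold lower. Centring each array on its median moved the median log2 ratio of all measured genes from 0.09 to -0.07, and with it the medians of all members to -0.18, the 20S core to -0.17, the 19S cap to -0.18, the activators to -0.30 and the immunoproteasome to 1.24; 29 of 37 members were then below 0. Quantile normalization gave the immunoproteasome 1.26. With the median over probe sets the 20S core had -0.20 and the activators -0.30. Without probe sets ending in _a_at, _s_at or _x_at, which left 30 members and no Psmb8 probe set, the 20S core had -0.15 (11 genes), and the immunoproteasome 1.13 with 1 of 2 genes at least 2-fold higher. Single members that moved by more than 0.29 there were Psma7 (-0.39), Psmb3 (-0.56) and Psmd13 (-0.50), and Psmb4 had -0.31 with the median over probe sets. Values past 1.5-fold, those of the inducible subunits and the MHC class I median, kept their sign. No member was past 1.5-fold, and members near 0 did change sign. With median centring Psma3 went from 0.10 to -0.06 and Psmd11 from 0.06 to -0.10. No paired analysis was possible because each group has 1 array. With 1 array per group, the spread between animals is unknown for all of these values.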

Other observations

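The E2 enzymes, which pass ubiquitin to substrates, had a median log2 ratio of 0.18 over 25 measured of 30 genes, and of 0.02 with median centring. None passed 2-fold, which 7.06% of all measured genes did upwards and 3.78% downwards. At least 1.5-fold higher were 2 of the 25, beside 16.4% of measured genes. Ube2e2 was the highest (141.9 and 237.6, 0.74) and Ube2g2, an enzyme of degradation at the endoplasmic reticulum, the lowest (-0.28, second probe set 0.54). The other gene past 1.5-fold was Ube2n, with 741 and 1166 (0.65), and -0.15 at a dimmer probe set.

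Other large complexes, chosen after the values were seen, had medians apart from that of the proteasome. Over 43 measured genes of cytoplasmic ribosomal proteins the median log2 ratio was 0.29 (0.09 for all measured genes), with 39 above 0 (57.8% of measured genes were). Of these 43, 4 were at least 1.5-fold higher, beside 16.4% of measured genes. Over 33 measured genes of respiratory complex I it was -0.64, with 32 below 0 (5059 of 12014 measured genes were). Of these 33, 23 were at least 1.5-fold lower (10.8% of measured genes were). For 37 proteasome genes the median was -0.01, with 20 below 0 and none at least 1.5-fold lower. Median centring gave the proteasome genes -0.18 and was not run for the ribosomal protein and complex I genes. It shifts every log2 ratio by the same amount, so the gaps between these medians do not depend on it. The proximal tubule markers were lower on the same array, and their part in these medians was not tested.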
